A study of Homo sapiens with 33 samples.

Results

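The comparison described here is day 3 against day 2 of dual SMAD inhibition in human embryonic stem cells, over every gene detected on the arrays. It compares 6 of the 33 arrays of the series, chosen by their treatment and time labels: 3 of cells treated for 3 days and 3 of cells treated for 2 days. The other arrays, of later days and of a second treatment called LSB3i, enter the estimate of the spread, so that the p-values rest on all 33. LSB3i adds 3 compounds to the treatment of the compared days: CHIR against GSK3, DAPT against gamma-secretase and SU5402 against FGF receptors. The established embryonic stem cell line H9 (WA-09) was cultured with FGF2 over mouse embryonic fibroblasts and moved to Matrigel for differentiation. Both compared days carried the same treatment, called LSB: LDN-193189, which inhibits the type I receptors of bone morphogenetic proteins (BMPs), and SB431542, which inhibits the receptors of TGF-beta, activin and nodal. No array of untreated cells was used here, so day 2 is the earliest point and is itself a treated one. All arrays come from 1 cell line, and whether the arrays of a day stand for separate cultures is not stated in the labels, so the p-values measure the spread between these samples, which may be technical.

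Pluripotent human cells depend on activin or nodal signalling through SMAD2 and SMAD3, which maintains NANOG, and BMP signalling through SMAD1 and SMAD5 pushes them towards extraembryonic and non-neural fates. Blocking both branches of the SMAD pathway directs the cells to neural ectoderm, by default of anterior (forebrain) character. The transcription factors OTX2, SIX3, HESX1 and PAX6 mark this anterior neural plate, while POU5F1, NANOG and SOX2 form the core of the pluripotency network, with SOX2 also expressed in neural progenitors.

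Mean raw signal was 734, 686 and 651 on the day 3 arrays A, B and C, against 802, 789 and 466 on the day 2 arrays A, B and C. Day 2 array C stood apart. It had 11284 probes above background (detection p under 0.01), against 12046 and 13238 on the other day 2 arrays and 12732 to 13164 on the day 3 arrays. Its mean correlation with its own group was 0.949, whereas day 2 arrays A and B correlated at 0.988 and the day 3 arrays at 0.988 to 0.989 with their group. Values without it are therefore given beside the main results. The level of a gene below is the log2 of its background-corrected, quantile-normalized intensity, and levels of different genes are not compared because they come from different probes. In such bulk RNA, fewer cells of a type and less RNA per cell cannot be told apart.

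Between the days, 1283 of 10038 genes tested differed (12.8%) at an adjusted p under 0.05 in limma's moderated test with Benjamini-Hochberg adjustment, 731 higher at day 3 (7.28%) and 552 lower (5.5%). A change of at least 2-fold was seen for 696 of them (6.93%), 410 higher (4.08%) and 286 lower (2.85%). The 3 arrays of day 3 lay wholly above or below those of day 2 for 1265 of the 1283, a separation that 41% of all genes tested also showed. The median difference over all genes was 0.04 on the log2 scale. Without day 2 array C, 699 genes passed, 395 higher and 304 lower, and 629 of these were among the 1283. All 1283 kept their direction. With each array scaled to its median in place of quantile normalization, 1371 genes passed, 1204 higher and 167 lower. The median over all genes was then 0.38, so the share of calls that were higher was 87.8% in place of 56.98%, and the balance of higher to lower calls depends on the scaling. Of the named genes that passed, 19 lost the call under median scaling, 18 of them lower and 1 higher. Without 1 of the day 3 arrays, 777 (A), 650 (B) and 788 (C) genes passed.

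**Figure D1:**
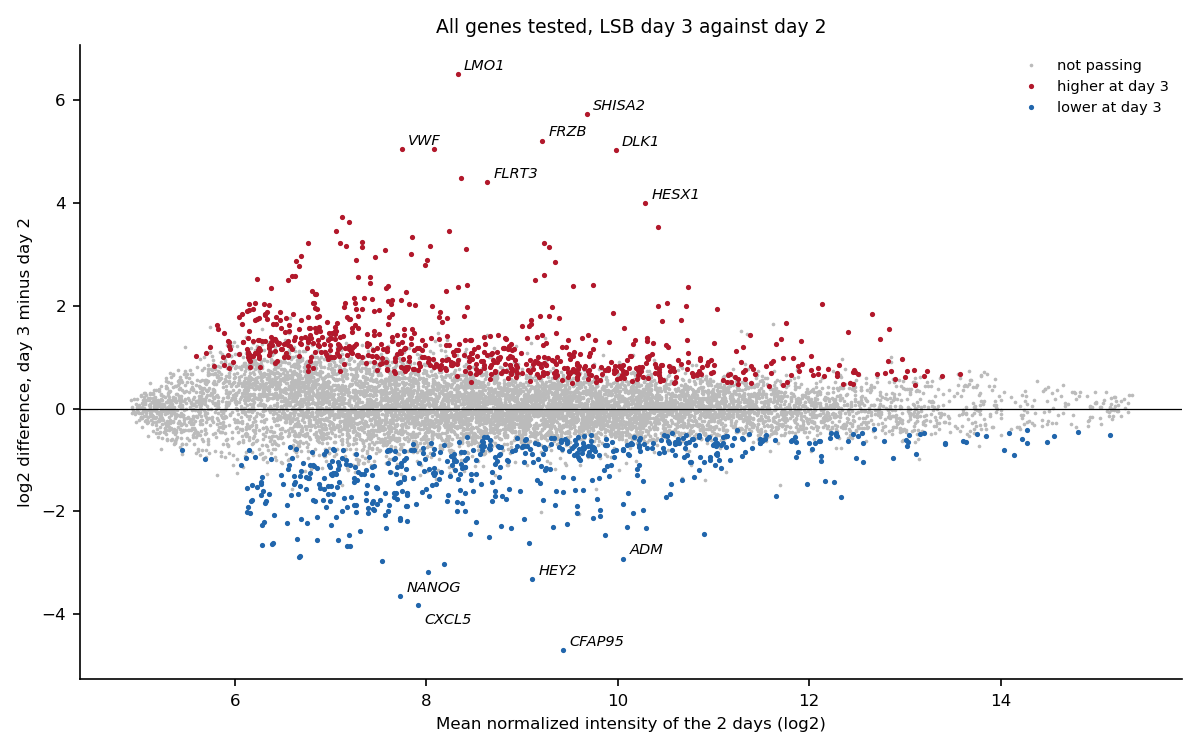
The log2 difference of day 3 minus day 2 (vertical axis) against the mean log2 intensity of both days (horizontal axis) for the 10038 genes tested. Each point is a gene, red where higher at day 3 and blue where lower at an adjusted p under 0.05, grey otherwise. LMO1 stands highest and CFAP95 lowest.

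The 12 genes with the largest gains included the transcriptional regulators LMO1, HESX1, FEZF1 and ZEB2, and the secreted or cell surface proteins SHISA2, FRZB, VWF, DLK1, EPHA4, FLRT3 and PAMR1. LMO1, a LIM-only transcriptional cofactor, measured 11.55, 11.69 and 11.50 at day 3, against 4.87, 5.34 and 5.02 at day 2. It was above background on every day 3 array and on no day 2 array, a difference of at least 28.9-fold (adjusted p = 1.67e-08 in limma). SHISA2, which holds back the maturation of Wnt and FGF receptors, measured 12.31, 12.82 and 12.50 at day 3, against 7.38, 6.84 and 6.22 at day 2, where 2 of the 3 arrays were above background. Its difference was 5.73 ± 0.47 on the log2 scale (SE, adjusted p = 5.76e-09). FRZB, a secreted Wnt antagonist, measured 11.91, 11.76 and 11.79 at day 3, against 7.36, 7.33 and 5.11 at day 2. The low value of FRZB at day 2 is that of array C, on which it was not above background. Its difference was 5.22 ± 0.44 (adjusted p = 9.34e-09).

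DLK1, an imprinted ligand-like protein of the Notch family, was 12.51, 12.74 and 12.24 at day 3, against 7.27, 7.30 and 7.80 at day 2, a difference of 5.04 ± 0.68 (adjusted p = 1.13e-05 in limma), and a second DLK1 probe gave 5.06. FLRT3, a membrane protein of FGF signalling and cell adhesion, rose by 4.41 ± 0.44 (adjusted p = 1.25e-07), with day 2 above background on 1 array. PAMR1, a gene of a secreted protease-like protein, rose by 3.53 ± 0.48 (adjusted p = 1.15e-05). Neither gene's arrays overlapped between the days, which the choice of the 12 highest required. Another 4 of the 12 highest were above background on all day 3 and no day 2 arrays, so only a lower bound can be given. These were EPHA4, an ephrin receptor (at least 14.7-fold), VWF, the von Willebrand factor of endothelium and platelets (at least 11.7-fold), ZEB2, a SMAD-interacting repressor (at least 4.87-fold), and RNU11, an RNA of the minor spliceosome (at least 14.8-fold). Their adjusted p-values were 6.86e-08, 6.99e-08, 0.000348 and 1.56e-09 in that order.

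At the other end, CFAP95, a cilia and flagella associated protein, measured 7.22, 6.97 and 7.05 at day 3, against 11.61, 11.75 and 11.99 at day 2, and fell by 4.71 ± 0.48 on the log2 scale (SE, adjusted p = 1.89e-07 in limma). HEY2, a Notch-induced repressor, measured 7.30, 7.69 and 7.33 at day 3, against 10.62, 11.10 and 10.58 at day 2, and fell by 3.33 ± 0.41 (adjusted p = 2.90e-06). ADM, the vasodilator peptide adrenomedullin, fell by 2.92 ± 0.55 (adjusted p = 0.000678). In all of these the day 3 arrays lay wholly below those of day 2, which the choice of the 12 lowest required. PRICKLE1, a planar cell polarity protein, fell by 3.02 ± 0.39 (adjusted p = 6.29e-06) and was above background on 2 of 3 day 3 arrays. LMCD1, a LIM domain cofactor, fell by 3.19 ± 0.53 (adjusted p = 0.000192) and was above background on 1 day 3 array. Another 6 of the 12 lowest genes were above background on all day 2 arrays and no day 3 array: CXCL5, a chemokine (at least 10.1-fold lower), NANOG, ALKAL2, a ligand of the receptor ALK (at least 5.79-fold), SCNN1G, a sodium channel subunit (at least 4.15-fold), TFF3, a mucosal peptide (at least 4.06-fold), and CCDC172 (at least 3.09-fold). AFP completes the group and is given with the mesendoderm genes.

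All genes tested, with 7.28% higher and 5.5% lower, give the base for reading the count of each list below. The pluripotency genes were reduced in part. Of 22 tested, 5 were lower at day 3 (NANOG, CRIPTO, GAL, DPPA2 and TERF1), 2 were higher (SALL4 and SFRP2) and 15 did not pass, with a median log2 difference of -0.45 against 0.04 for all genes. With day 2 array C left out, 5 were lower and 1 was higher. NANOG, the homeodomain factor that holds pluripotency, measured 5.88, 5.94 and 5.88 at day 3, against 9.52, 9.46 and 9.68 at day 2. All day 3 values were at background, a decrease of at least 8.36-fold (adjusted p = 5.76e-09 in limma). NANOG and CRIPTO have near-identical retrogene copies, so their signal cannot be assigned with certainty. CRIPTO (TDGF1), the nodal co-receptor, measured 4.82, 4.98 and 5.07 at day 3, against 7.57, 7.78 and 7.46 at day 2, a decrease of at least 2.17-fold (adjusted p = 4.10e-10). GAL, the neuropeptide galanin, abundant in stem cells, fell by 2.32 ± 0.56 (adjusted p = 0.0072). DPPA2, a germline and stem cell chromatin factor, fell by 2.18 ± 0.48 (adjusted p = 0.00324) and was above background on 1 day 3 array.

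Other core genes did not pass. POU5F1 measured 7.92, 7.996 and 7.94 at day 3, against 8.66, 9.16 and 9.40 at day 2, a difference of -1.12 ± 0.48 (adjusted p = 0.126 in limma). Its arrays did not overlap, and with only the arrays of the 2 days in the fit the same difference passed (adjusted p = 0.0147). Related pseudogenes can share its signal. SOX2 differed by 0.51 ± 0.27 (adjusted p = 0.239) and LIN28A, an RNA-binding repressor of let-7, by 0.73 ± 0.52 (adjusted p = 0.391). Both passed as higher with only the arrays of the 2 days in the fit, and with array weights. LIN28A also passed without the LSB day 7 arrays. With only the arrays of the 2 days, 9 of the list were lower and 4 higher, and with array weights 11 were lower and 5 higher. The balance was the other way with only probes detected on at least 17 arrays kept. Of 13 members then tested, 2 were higher (SALL4 and SFRP2) and 1 was lower (TERF1), with a median of -0.01. NANOG, CRIPTO, GAL and DPPA2 were not tested under that filter. DNMT3B, the de novo DNA methyltransferase, differed by -0.01 ± 0.29 (adjusted p = 0.986). SFRP2, a secreted Wnt modulator, rose by 1.81 ± 0.31 (adjusted p = 0.000245). SALL4, a zinc finger factor, rose by 0.83 ± 0.25 (adjusted p = 0.0283), and that call was lost without any 1 of day 3 arrays B and C and day 2 arrays A and C (adjusted p 0.0574 to 0.11). TERF1, a telomere-binding protein, fell by 0.97 ± 0.27 (adjusted p = 0.0171), lost without day 3 array B or day 2 array B or C (adjusted p 0.0517 to 0.0723) and under median scaling (0.123).

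The promoter of NANOG is shown because it is the pluripotency gene with the largest decrease. The 250 bases before its start, from the RefSeq promoter table of build GRCh38.p14 at chr12:7789152-7789401 (plus strand), read 5′ to 3′, with 2 motifs in capitals:
NANOG: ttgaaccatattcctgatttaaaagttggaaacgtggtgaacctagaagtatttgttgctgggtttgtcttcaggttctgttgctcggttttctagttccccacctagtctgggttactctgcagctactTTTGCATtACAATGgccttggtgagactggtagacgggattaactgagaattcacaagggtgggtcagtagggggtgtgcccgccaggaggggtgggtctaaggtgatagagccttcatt
The capitals mark a part of the octamer bound by POU factors (ATGCAAA or, on the other strand, TTTGCAT), 120 bases before the start, and a SOX motif (CATTGT or ACAATG), 112 bases before it. Both were searched on both strands and do not overlap. The first occurs in 3.94% and the second in 9.29% of the 35116 promoter windows of the same length. Of 3 members that fell and have a window, the first is in 1 and the second in 2, and the first is also in the window of SFRP2, which rose. These are matches of letters only.

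Of 26 anterior neuroectoderm genes tested, 14 were higher at day 3, none was lower and 12 did not pass, with a median log2 difference of 1.43. The number was 13 without day 2 array C, and 10 to 18 over all alternatives. A member at background at day 2 that passes the detection filter through day 3 has to be higher there, which limits the count. With only probes detected on at least 17 arrays kept, 10 of 20 members were higher and none was lower. Their median was then 1.53, against 0.05 for all genes kept by that filter. Of the 29 genes of the list on the array, 18 or 19 were above background on the day 3 arrays, against 11 or 12 on the day 2 arrays. HESX1, a repressor of the anterior neural plate and pituitary, measured 12.47, 12.12 and 12.27 at day 3, against 8.85, 7.83 and 8.18 at day 2, and rose by 3.998 ± 0.61 (adjusted p = 6.58e-05 in limma). OTX2, a homeobox factor of the head and forebrain, measured 13.14, 13.20 and 13.11 at day 3, against 11.07, 11.35 and 10.93 at day 2, and rose by 2.04 ± 0.29 (adjusted p = 3.07e-05). Both other OTX2 probes also passed, at 3.33 and 2.90. POU3F1, an early neural POU factor, rose by 2.999 ± 0.45 (adjusted p = 4.55e-05), above background on 1 day 2 array.

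Another 4 members were above background on all day 3 arrays and no day 2 array. FEZF1, a forebrain zinc finger repressor, measured 8.88, 9.09 and 8.96 at day 3, against 5.30, 5.22 and 5.24 at day 2 (at least 4.76-fold higher, adjusted p = 2.26e-08 in limma). SIX3, the eye field and forebrain homeobox factor, measured 8.68, 9.43 and 8.60 at day 3, against 5.11, 5.30 and 6.87 at day 2 (at least 4.52-fold, adjusted p = 2.38e-07). In both, every day 3 value lay above every day 2 value, which the choice of the 12 highest required of FEZF1. LHX5, a LIM homeobox factor of the forebrain, was at least 2.73-fold higher (adjusted p = 2.20e-05). PAX6, the paired-box factor of neural progenitors and eye, measured 7.58, 7.60 and 7.31 at day 3, against 4.89, 5.04 and 4.99 at day 2 (at least 1.71-fold higher, adjusted p = 0.00663). Its other probe gave a log2 difference of 0.51 that did not pass, and with the authors' processed values the PAX6 call was lost (adjusted p = 0.0734). The other 7 that rose were LIX1, SOX11, CDH2, IRX3, ZIC2, SIX6 and RAX, by 1.15 to 2.05. SIX6 (1.19) and RAX (1.15) lie at the low end and near background. With only probes detected on all arrays of LSB day 2 or day 3 kept, 12 of 16 members were called, without SIX6 and RAX. LHX2, a later forebrain factor, measured 5.31, 5.32 and 5.78 at day 3, against 4.81, 5.10 and 6.20 at day 2, all at background.

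**Figure D2:**
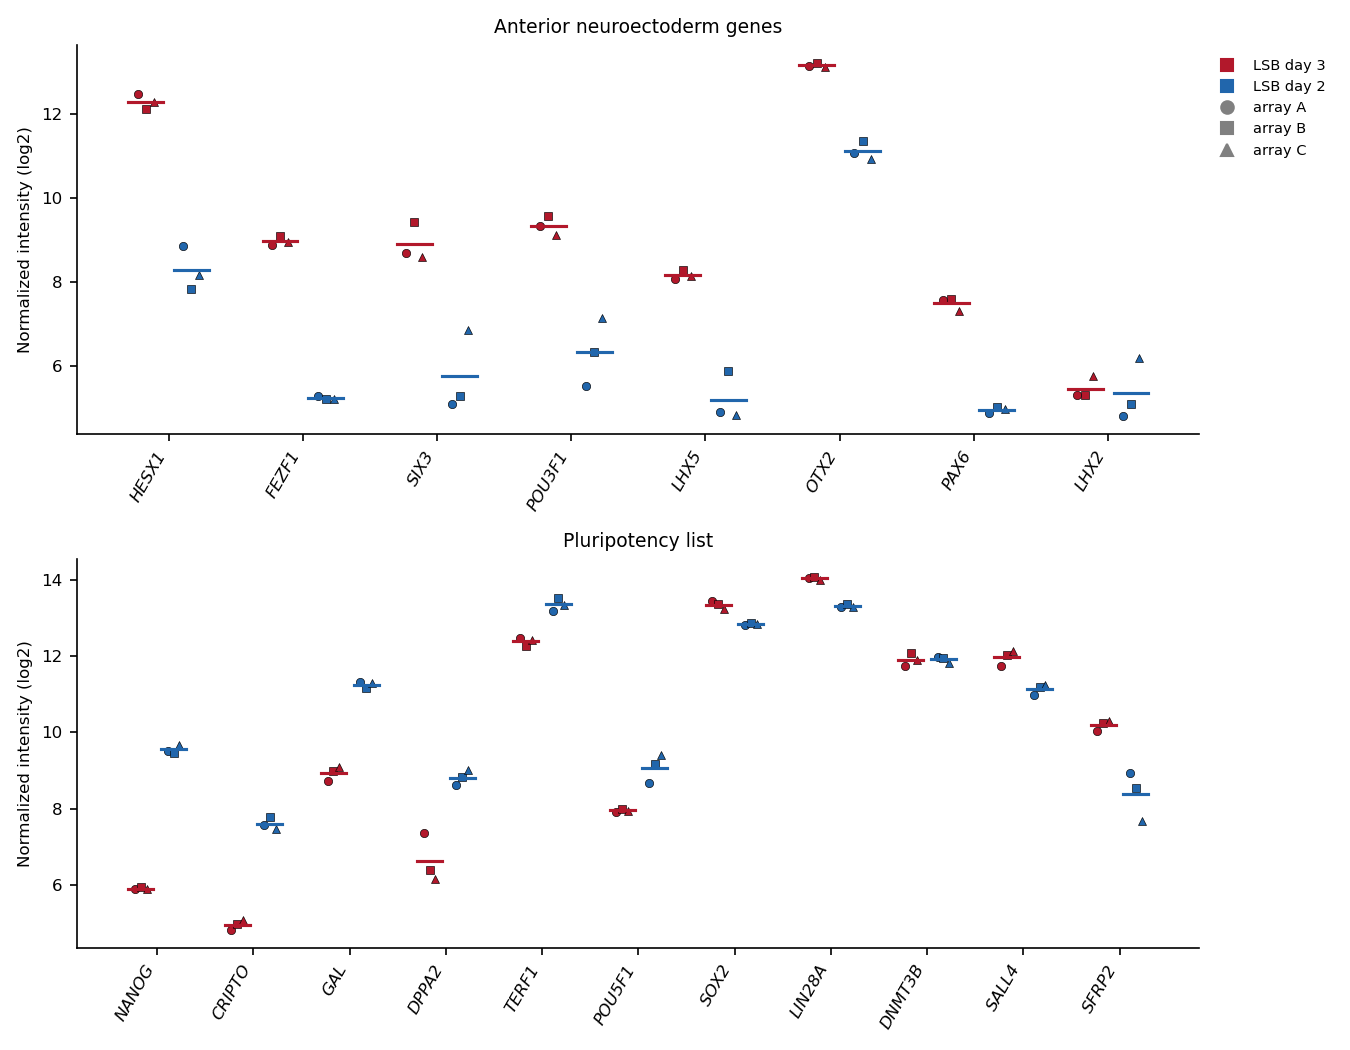
Log2 normalized intensity (vertical axis) of single genes on each array, LSB day 3 in red at the left of each pair and LSB day 2 in blue at the right, with circles, squares and triangles for arrays A, B and C and a bar for the mean of 3 arrays. The upper panel holds anterior neuroectoderm genes, which apart from LHX2 lie higher at day 3. In the lower panel, NANOG, CRIPTO, GAL, DPPA2 and TERF1 lie lower at day 3, and heights of different genes are not comparable.

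Many targets of the inhibited receptors were at background on both days. Of 12 nodal and activin target genes on the array, 10 were above background on none of the 6 arrays, among them the ligand NODAL and its antagonists LEFTY1 and LEFTY2. Of 3 tested, 1 was lower, CRIPTO, described above. The array with most nodal targets above background had 2, on day 2. Of 15 BMP target genes on the array, 8 were above background on none of the 6 arrays, and of 11 tested 2 were higher and none was lower. These were SMAD6, an inhibitory SMAD (at least 1.44-fold higher, adjusted p = 0.00171), and ID2, an inhibitor of bHLH factors, at 11.94, 11.76 and 11.68 at day 3, against 10.77, 11.05 and 10.19 at day 2. ID2 rose by 1.12 ± 0.31 (adjusted p = 0.0173), which was lost without day 2 array C (0.89, adjusted p = 0.114) or day 3 array A or B (adjusted p = 0.0671 and 0.0531). ID1 and ID3, the direct BMP targets used most often as readouts, differed by 0.32 ± 0.58 and -0.10 ± 0.26 and did not pass (adjusted p = 0.776 and 0.85).

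Of 16 Notch ligands, receptors and targets tested, 4 (25%) were lower at day 3 (HEY2, HES5, DLL1 and HES4), against 5.5% of all genes. Another 2 (12.5%) were higher (HES1 and NOTCH3), against 7.28% of all genes. The median was -0.18. Leaving out day 2 array C gave 3 lower and 2 higher. Under median scaling the list's median was 0.22. DLL1, a Notch ligand, measured 7.33, 7.69 and 7.71 at day 3, against 8.95, 9.12 and 9.60 at day 2, and fell by 1.65 ± 0.27 (adjusted p = 0.000133 in limma). HES5, a repressor induced by Notch in neural progenitors, measured 5.32, 6.01 and 6.46 at day 3, against 7.84, 7.39 and 7.87 at day 2. No day 3 value was above background, a decrease of at least 2.32-fold (adjusted p = 0.00731, and 0.0558 without day 3 array A). HES4 fell by 0.91 ± 0.28 (adjusted p = 0.0325), a call lost with any 1 of the 6 arrays left out (adjusted p 0.0535 to 0.135) and under median scaling (0.303). HES1, another repressor of the same family, measured 8.21, 8.06 and 7.91 at day 3, against 5.91, 6.80 and 6.27 at day 2, and rose by 1.74 ± 0.33 (adjusted p = 0.000844), above background on 1 day 2 array. NOTCH3, a receptor, rose by 1.14 ± 0.26 (adjusted p = 0.00437).

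HES and HEY genes are the usual direct targets of the Notch effector RBPJ, and they moved in opposite directions here, so their promoters are set side by side. Each line holds the 250 bases before the start, 5′ to 3′, from the same RefSeq table, with the RBPJ core (TGGGAA or, on the other strand, TTCCCA) in capitals. The windows lie at chr1:2530264-2530513 (minus strand) for HES5, chr6:125749382-125749631 (plus strand) for HEY2, chr1:1000098-1000347 (minus strand) for HES4 and chr3:194135898-194136147 (plus strand) for HES1.
HES5: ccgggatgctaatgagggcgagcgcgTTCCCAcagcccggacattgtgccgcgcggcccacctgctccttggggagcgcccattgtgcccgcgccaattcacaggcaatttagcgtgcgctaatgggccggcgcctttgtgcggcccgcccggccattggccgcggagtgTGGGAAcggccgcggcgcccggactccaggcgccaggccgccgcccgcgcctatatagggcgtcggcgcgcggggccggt
HEY2: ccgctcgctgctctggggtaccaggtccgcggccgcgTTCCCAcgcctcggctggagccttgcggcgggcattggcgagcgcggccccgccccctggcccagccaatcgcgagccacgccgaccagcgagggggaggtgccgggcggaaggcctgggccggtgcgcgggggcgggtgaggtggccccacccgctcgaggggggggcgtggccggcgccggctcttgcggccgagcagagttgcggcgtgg
HES4: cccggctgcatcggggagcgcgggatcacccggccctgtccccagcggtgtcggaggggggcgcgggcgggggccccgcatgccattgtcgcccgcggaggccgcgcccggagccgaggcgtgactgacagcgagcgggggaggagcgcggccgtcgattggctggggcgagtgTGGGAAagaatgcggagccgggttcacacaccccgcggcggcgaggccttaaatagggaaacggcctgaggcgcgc
HES1: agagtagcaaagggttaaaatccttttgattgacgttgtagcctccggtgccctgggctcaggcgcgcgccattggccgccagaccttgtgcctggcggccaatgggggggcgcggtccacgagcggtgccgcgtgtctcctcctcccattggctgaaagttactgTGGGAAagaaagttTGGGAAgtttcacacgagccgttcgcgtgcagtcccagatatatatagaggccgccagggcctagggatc
All 4 windows hold the core: HES5 224 and 80 bases before the start, HEY2 213 bases, HES4 76 bases and HES1 84 and 70 bases. The core occurs in 20.8% of the 35116 windows, so a match alone is common, and it is found in the promoters of genes that fell and of the 1 that rose.

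Among 13 Wnt target and pathway genes, 3 were higher and 2 lower, with a median of 0.42. The counts without day 2 array C were 2 higher and 1 lower. TNFRSF19, a Wnt-responsive receptor, measured 9.93, 9.83 and 10.12 at day 3, against 6.60, 6.55 and 6.38 at day 2, and rose by 3.45 ± 0.58 (adjusted p = 0.000233 in limma), above background on 1 day 2 array. FZD5, a Frizzled receptor of the anterior neural plate and eye, was at least 2.73-fold higher (adjusted p = 0.00115). AXIN2, the negative-feedback target of beta-catenin, measured 8.54, 8.75 and 8.58 at day 3, against 9.91, 10.04 and 10.79 at day 2, and fell by 1.63 ± 0.37 (adjusted p = 0.00441). The Wnt antagonist DKK1 was at least 1.31-fold higher (adjusted p = 0.0279), a call lost with any 1 of the 6 arrays left out (adjusted p 0.0597 to 0.0854), with the other background offset (0.0598) and with the authors' processed values (0.132). WLS, the carrier of Wnt ligands, was above background on all day 3 and no day 2 arrays by the probe used (at least 4.66-fold, adjusted p = 0.00191), but its 4 other probes gave 0.26 to 0.83 and did not pass.

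Of 19 FGF and ERK targets, 3 were higher (EGR1, FOS and IL17RD) and 3 lower (IER3, MYC and SPRY4), with a median of -0.29. The IL17RD call (0.70, adjusted p = 0.0375 in limma) was lost without any 1 day 3 array or day 2 array C. It was also lost under median scaling, with only the arrays compared and with the mean of its probes (adjusted p = 0.839). Its other probe gave -0.46. Leaving out day 2 array C gave 1 higher and 3 lower. SPRY4, a feedback inhibitor of receptor tyrosine kinases, fell by 1.13 ± 0.31 (adjusted p = 0.0153 in limma), lost without day 3 array A (adjusted p = 0.056) or day 2 array A (adjusted p = 0.061), and under median scaling (0.195). IER3, an immediate-early gene, measured 6.65, 6.72 and 6.77 at day 3, against 8.27, 8.24 and 8.26 at day 2, and fell by 1.55 ± 0.34 (adjusted p = 0.00324). Of 13 immediate-early genes, 4 were lower (JUN, IER3, MYC and DUSP1) and 2 higher (FOS and EGR1). With any 1 array left out, 2 or 3 were lower and 0 or 1 higher, and under median scaling 2 were lower and the list's median was 0.30 in place of -0.08. DUSP1, a phosphatase of MAP kinases, lost its call without any 1 array other than day 2 array C (adjusted p 0.0726 to 0.107) and under median scaling (0.351). JUN, an AP-1 subunit, fell by 1.78 ± 0.37 (adjusted p = 0.00196), above background on 1 day 3 array, whereas FOS, its partner, was at least 1.4-fold higher (adjusted p = 0.0197, and 0.0784 to 0.0864 without day 3 array A or C or day 2 array A, and 0.063 with the authors' processed values). EGR1 rose by 1.24 ± 0.38 (adjusted p = 0.0326), a call lost with any 1 of the 6 arrays left out (adjusted p 0.0563 to 0.13). MYC fell by 1.23 ± 0.35 (adjusted p = 0.0194), lost without day 3 array A or C or day 2 array C (adjusted p 0.0577 to 0.0797) and under median scaling (0.137).

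Of 14 targets of SRF and YAP, 4 were lower and none higher, with a median of -0.40, and without day 2 array C 3 were lower. ACTG2, a smooth muscle actin, measured 8.51, 8.89 and 8.51 at day 3, against 11.36, 11.05 and 10.90 at day 2, and fell by 2.46 ± 0.46 (adjusted p = 0.000669 in limma). CNN1, the actin-binding calponin, fell by 1.95 ± 0.36 (adjusted p = 0.000681), above background on 1 day 3 array. TAGLN, transgelin, fell by 1.72 ± 0.40 (adjusted p = 0.00509), and its other probe gave -1.82. CCN2, a matricellular target of YAP, fell by 0.76 ± 0.26 (adjusted p = 0.0478), a call lost with any 1 of the 6 arrays left out (adjusted p 0.0878 to 0.124) and under median scaling (0.416).

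Counts of markers of other cell types can be read against the 12.8% of all genes that were called. Of 16 mesendoderm genes on the array, 13 were above background on none of the 6 arrays. AFP, the fetal serum protein of visceral endoderm and liver, measured 5.18, 5.02 and 5.46 at day 3, against 8.68, 7.86 and 7.81 at day 2, at least 3.09-fold lower (adjusted p = 3.47e-06 in limma). Of 7 trophoblast and amnion genes tested, 1 was higher (HAPLN1, a matrix link protein, at least 1.51-fold, adjusted p = 0.00467), with its other probe at 0.37 and the call lost with the mean of both (adjusted p = 0.0701) and with the authors' processed values (0.0582). Among 17 neural crest genes, 1 was lower (ETS1, -1.60 ± 0.50), a call lost without day 2 array A or C or any 1 day 3 array (adjusted p 0.0605 to 0.14) or under median scaling (0.0869). The fibroblast and mesenchyme list, which could also mark carried-over feeder cells, had 1 of 14 higher and 1 lower. THY1, a surface glycoprotein of fibroblasts and neurons, fell by 0.94 ± 0.18 (adjusted p = 0.000813, and 0.178 under median scaling), and S100A4 rose by 0.87 ± 0.28 (adjusted p = 0.0429), a call lost without day 2 array B or C or any 1 day 3 array (adjusted p 0.0784 to 0.155). Among 16 epithelial and adhesion genes, LAMA1, a laminin chain, rose by 1.72 ± 0.26 (adjusted p = 6.23e-05) and PKP2, a desmosomal plakophilin, fell by 0.96 ± 0.32 (adjusted p = 0.0476, 0.0538 to 0.272 without any 1 array other than day 2 array A, and 0.287 under median scaling).

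Pan-neuronal genes were divided, with 4 of 26 higher and 4 lower (median -0.28), and without day 2 array C 3 were higher and 4 lower. RTN1, a reticulon of neurons, was at least 3.77-fold higher (adjusted p = 0.000463 in limma), NCAM1, a neural cell adhesion molecule, at least 1.57-fold (adjusted p = 0.00456), and MAP2, a dendritic microtubule protein, at least 2.13-fold (adjusted p = 0.00256), with 1 of its other probes at 0.28 and the call lost with the authors' processed values (0.0513). On the other side, SCG3, a granule protein of secretory cells, measured 6.57, 6.72 and 6.30 at day 3, against 8.75, 8.81 and 8.27 at day 2, and fell by 2.08 ± 0.38 (adjusted p = 0.000583). SYT4, a synaptotagmin of vesicle release, had a decrease of at least 2.32-fold (adjusted p = 0.00493), and NEFH, the heavy neurofilament, one of at least 1.33-fold (adjusted p = 0.00108).

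The retinoid genes gave 2 of 10 higher and 3 lower (DHRS3, ALDH1A3 and RDH10), but without day 2 array C only RARA, a retinoic acid receptor, was still higher and none was lower. RARA measured 8.54, 8.81 and 8.53 at day 3, against 6.93, 7.35 and 7.59 at day 2, and rose by 1.34 ± 0.33 (adjusted p = 0.00767 in limma). CYP26A1, which degrades retinoic acid, measured 13.46, 13.69 and 13.58 at day 3, against 11.71, 11.75 and 11.77 at day 2, and rose by 1.84 ± 0.58 (adjusted p = 0.0357). The arrays of CYP26A1 were tight and did not overlap, and the call was lost with any 1 of the 6 left out (adjusted p 0.069 to 0.107), while its other 2 probes passed at 2.54 and 2.19. DHRS3, which reduces retinaldehyde, fell by 1.86 ± 0.56 (adjusted p = 0.0289), lost in the same way (adjusted p 0.0525 to 0.0909).

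Counts of cell cycle and metabolic genes can be read against the 7.28% of all genes that were higher and the 5.5% that were lower. None of 22 mitosis genes and none of 10 G1 cyclins and CDK inhibitors passed, and 1 of 17 DNA replication genes did (CCNE1, lower, adjusted p = 0.0489 in limma, 0.0578 to 0.252 without any 1 array other than day 2 array A, and 0.469 under median scaling). The log2 differences of the mitosis genes ranged from -0.70 to 0.38. Of 22 genes of hypoxia and glycolysis, 4 were higher (18.2%: ENO2, P4HA1, EGLN3 and PGK1) and 1, ADM, was lower. ENO2, a neuronal enolase, was the only one still higher without day 2 array C, at 10.96, 11.33 and 11.02 at day 3, against 10.22, 10.27 and 9.96 at day 2, a rise of 0.95 ± 0.16 (adjusted p = 0.000284). Of 22 subunits of oxidative phosphorylation, 3 were lower (13.6%), with a median of -0.32. ATP5MC3, an ATP synthase subunit, fell by 1.32 ± 0.25 (adjusted p = 0.00084). The other two lost their calls under median scaling, where the list's median was -0.01: ATP5MC1 (adjusted p = 0.0172, then 0.162) and UQCRQ (adjusted p = 0.00678, then 0.268). The ATP5MC1 call was also lost without day 3 array A or C or day 2 array C (adjusted p 0.0535 to 0.067). None of 19 ATF4 stress genes and none of 8 metallothionein and zinc genes passed, whereas 2 of 14 cholesterol synthesis genes (14.3%: IDI1 and NSDHL), 2 of 11 p53 targets (18.2%: GDF15 and PHLDA3) and 1 of 13 heat shock genes (7.69%: HSPB1) were lower. Neither cholesterol gene passed without day 2 array C or under median scaling, and neither p53 target without day 2 array C or any 1 day 3 array. The HSPB1 call was lost without any 1 day 3 array or day 2 array A or B (adjusted p 0.0521 to 0.0866) and under median scaling (0.323). Of 7 genes of DNA methylation, TET1 was higher (0.85 ± 0.23, adjusted p = 0.0152), a call lost without day 2 array C (adjusted p = 0.0901) or day 3 array A (adjusted p = 0.0876).

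**Figure D3:**
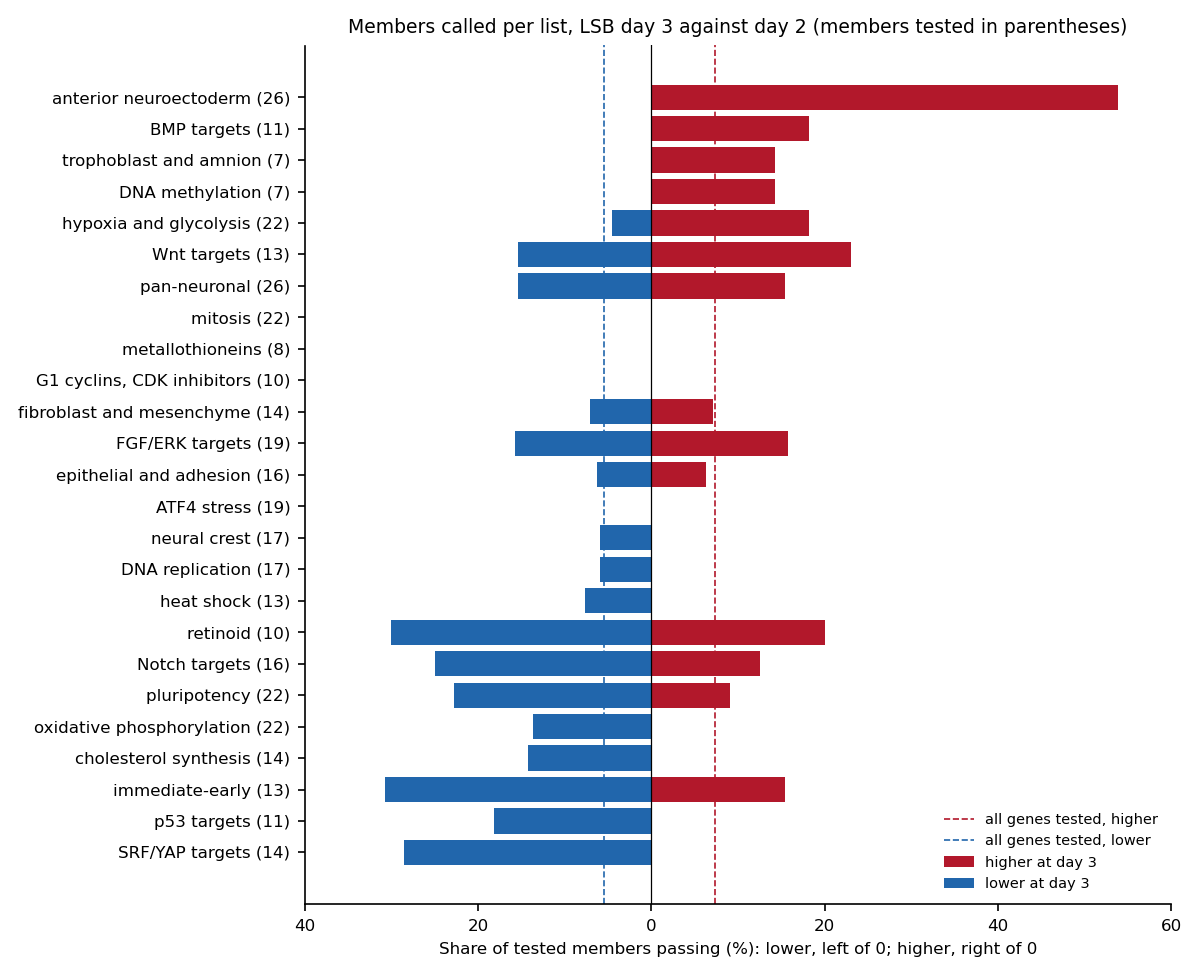
Percent of tested members (horizontal axis) that were higher at day 3 (red, right of 0) or lower (blue, left of 0) than at day 2 at an adjusted p under 0.05, for each list with at least 7 members tested. Dashed lines mark all genes tested, at 7.28% higher and 5.5% lower. The anterior neuroectoderm list has the longest bar to the right.

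Crossing the detection limit was more frequent upward. At day 3, 197 genes (1.96%) were above background on all 3 arrays and on no day 2 array, and 117 of them passed. In the other direction 75 genes (0.747%) were above background on all day 2 arrays and no day 3 array, and 66 passed. Without day 2 array C, an alternative added after seeing the data, these were 226 genes with 89 passing and 115 genes with 66 passing. The rule then rests on day 2 arrays A and B alone and is looser, so the numbers of genes can only stay or rise. Besides those already given, genes that appeared included ZNF521, a zinc finger factor of neural progenitors, at 8.99, 8.96 and 8.86 at day 3, against 6.01, 6.42 and 5.54 at day 2 (at least 4.63-fold, adjusted p = 2.44e-07 in limma). Genes that dropped below background included GALNT9, a glycosyltransferase (at least 3.83-fold lower, adjusted p = 0.000393), PLAAT4, a retinoid-inducible lipid enzyme (at least 3.81-fold, adjusted p = 0.000517), and HBA2, an alpha globin (at least 3.67-fold, adjusted p = 2.90e-06), whose near-identical copy HBA1 can share its signal. Day 2 array C had the fewest probes above background of the 6 arrays, and day 2 array A also had fewer than any day 3 array. The lowest detected log2 signal was 6.76 on day 2 array A and 7.00 on C, against 6.45 to 6.56 on the day 3 arrays. On day 2 array B it was 6.43. Whether this accounts for the greater number of upward crossings was not tested.

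The following step, day 5 against day 3, shares the day 3 arrays and spans 2 days in place of 1. It had 566 genes that passed (5.64%), 243 higher (2.42%) and 323 lower (3.22%). Which step had more calls depended on the fit: with only the arrays of the days compared, 2698 genes passed for day 5 against day 3 and 1570 for day 3 against day 2. A direct test of the difference, the change of day 2 to 3 minus the change of day 3 to 5, called 213 genes (2.12%), 153 with the more positive change in the first step (1.52%) and 60 with the more negative (0.598%). Without day 3 array B the counts were 30 and 24, without day 3 array A 61 and 30, and without day 3 array C 58 and 31. The 4 highest differences belonged to genes that were above background on no day 2 array and on all day 3 arrays. HMX2, a homeobox factor, had mean levels of 5.15, 8.37 and 5.84 at days 2, 3 and 5, above background at day 3 only (adjusted p of the difference of steps 6.24e-08 in limma). LMO1 had mean levels of 5.07, 11.58 and 9.74, RNU11 5.55, 10.62 and 9.25, and VWF 5.22, 10.27 and 9.91 on the same days. Of these, RNU11 fell by 1.36 between days 3 and 5 (adjusted p = 0.0292), and LMO1 and VWF did not pass there (adjusted p = 0.0593 and 0.795).

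The 4 lowest differences belonged to genes that fell or were at background at day 3 and were higher at day 5. DLL1 had mean levels of 9.22, 7.58 and 10.41 at days 2, 3 and 5, so its change of -1.65 was followed by one of 2.84, a difference of -4.48 ± 0.46 (adjusted p = 1.26e-06 in limma). HES5 had mean levels of 7.70, 5.93 and 10.69 on those days, with the middle value at background. LHX2 and LMO3, a LIM-only cofactor, were at background on days 2 and 3 and had mean levels of 11.46 and 9.70 at day 5. MT1X, a metallothionein, differed by 0.71 ± 0.32 from day 2 (adjusted p = 0.153) and then fell by 3.01 by day 5.

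**Figure D4:**
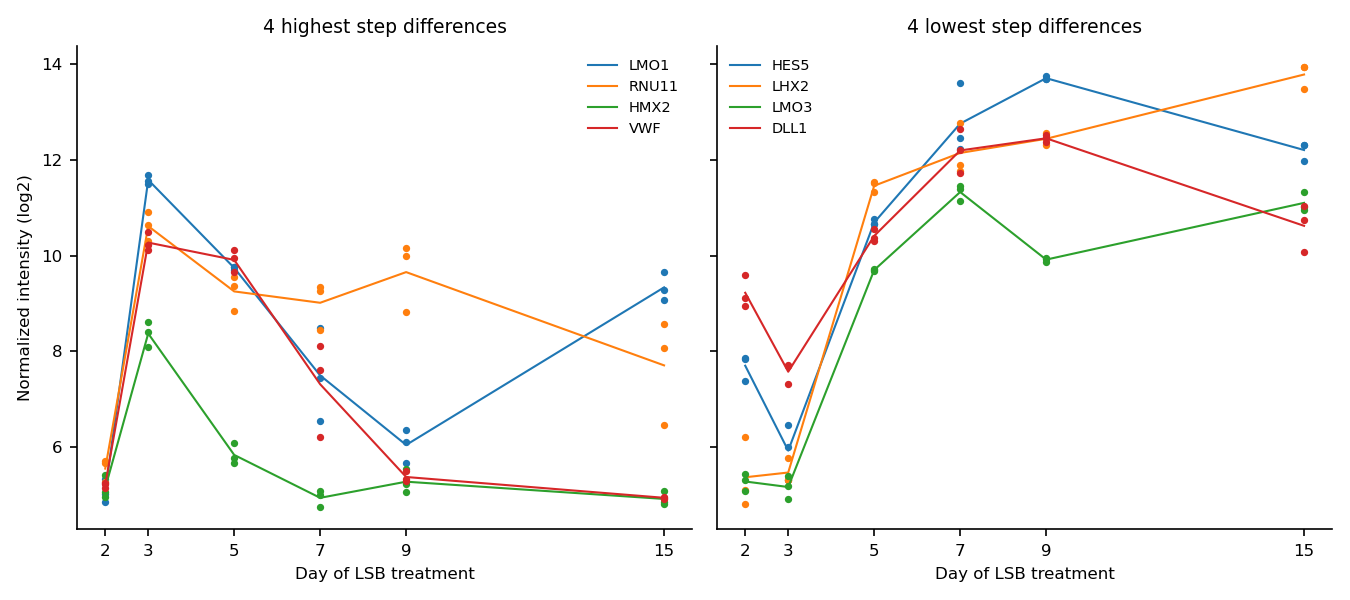
Log2 normalized intensity (vertical axis) over days of LSB treatment (horizontal axis) for the genes with the 4 highest (left) and 4 lowest (right) differences of steps. Lines join means of 3 arrays and points are single arrays. On the left, the levels peak at day 3, and on the right the levels lie lower at day 3 than at days 5 to 15.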

How the data were processed

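The deposited non-normalized table, which the submitters' processing notes link to GenomeStudio, gives a linear-scale bead intensity for every probe and array, beside a deposited detection p-value. No version of GenomeStudio is given in the sources used here. The authors' processed table holds normalized intensity values. When its probes were paired with those of the other table by their ranks across arrays, 48780 found a partner and 4.91% of these carried the same ID in both, so it entered only as an alternative, under the paired IDs. Columns of other samples in these tables numbered 0.

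Intensities of all 33 arrays were corrected with normexp in limma 3.58.1 (R 4.3.3), the background inferred from detection p-values with an offset of 16, then quantile-normalized and log2-transformed. Probes were kept where 1 or more groups had a detection p under 0.01 on all 3 arrays (14651 probes, 12708 with 1 gene symbol). Symbols came from the platform annotation: 28098 probes had 1, 13 had several and 20692 had none here. The brightest probe stood for each of 10038 genes. Of 311 other detected probes of passing genes, 289 went the same way, 118 of them also passing, and 0 passed the opposite way. The test was limma's lmFit and eBayes with a mean for each of 11 groups, leaving 22 residual degrees of freedom, and the median standard error of a difference was 0.277. For genes not above background on any array of a day, a lower bound was taken against the higher of its own value and the lowest detected signal of each array, and no fold is given where that bound was under 1 or both days were at background. Precision is limited by the number of arrays, since intensities carry no read depth.

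The script was also run on data with known answers for day 3 against day 2. There, 72 of 100 genes given a change of 1.5 on the log2 scale were recovered, and 100 of 100 given 2.5. Of 9838 unchanged genes, 7 were called. On the measured arrays the residual SD was 0.221 at day 3, 0.431 at day 2 and 0.801 at LSB day 7. Whether the counts from the data with known answers hold for the measured arrays, whose spread differs between groups, was not tested.

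The comparison, the 27 gene lists and the members named were chosen with earlier results of these data known. Genes could be named as the 12 highest and 12 lowest passing genes with non-overlapping arrays, up to 6 higher and 6 lower passing members per list (the 2 with the greatest shift where fewer than 2 passed), up to 8 that appeared or disappeared, taken by intensity, the 4 highest and 4 lowest differences of steps, and a panel of 20. The remaining names in a list's count were added after values were seen. Array letters did not pair the samples: deviations of same-letter arrays correlated at 0.0343, 0.00852 and -0.0154 between day 3 and day 2, so the block was fitted only as an alternative. Alternatives changed the scaling, background, filter, probe choice, arrays, weights and block. Promoter sequences are RefSeq windows of build GRCh38.p14, matched by symbol.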

Additional observations from a re-analysis of the deposited data

How the results depend on the processing

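For day 3 against day 2, 1283 genes passed, and 1125 to 1907 did under 10 of the 11 alternatives to scaling, background, filter, probe choice, arrays, weights, block and source of values, the other being array weights with 3612. Of these counts, 1276 came from the replicate block over all arrays and 1256 from the replicate block within the days compared, so the block moved no count by over 1.5 times, and 2 named genes lost their calls under each block. Requiring a change of at least 2-fold left 696. Leaving out 1 array gave 650 to 1240, with 650 to 788 without a day 3 array and 699 without day 2 array C. For day 5 against day 3, 566 passed in the fit as reported, 360 under median scaling, 2698 with only the arrays of both days, 869 without the LSB day 7 arrays, 3529 with array weights and 310 to 360 with 1 array left out. For the difference of steps, 213 passed, against 745 with only the arrays compared, 337 without the LSB day 7 arrays, 1880 with array weights and 54 to 226 with 1 array left out (54 to 91 without a day 3 array). The replicate block within the groups compared gave 464 and 182 for these. Of 97 named genes that passed, 58 did so in every alternative that tested them, and 0 reversed. Calls were lost by 19 under median scaling (18 of them lower), by 22 to 27 without a day 3 array, by 15 to 17 without day 2 array A or B and by 27 without day 2 array C. Genes above background at day 2 only numbered 115 without day 2 array C, in place of 75, by a rule that is looser with an array fewer. Sign changes were limited to genes that did not pass in the fit as reported: under median scaling ACTB (0.219), DNMT3B (0.195), ID3 (0.126) and LEFTY2 (0.00427), with the mean of probes DNMT3B (0.0182), with array weights LMO3 (0.0127), and with 1 array left out DNMT3B (-0.0982 to 0.0662), LMO3 (-0.231 to 0.0127), LHX2 (-0.182 to 0.514), ID3 (-0.201 to 0.0168) and LEFTY2 (-0.275 to 0.0632). The cause was not tested. Dim genes are limited by signal over background, since a gene at background on both days gives no fold.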

Other observations

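Histone genes and small noncoding RNAs were chosen as groups after their values were seen, so they are described without a test. The 31 histone genes measured lie on chromosomes 1 and 6 apart from H1-10, on chromosome 3. By limma's adjusted p, 14 were called higher at day 3, but 11 of these were above background on no day 2 array, and genes that pass the detection filter through day 3 have to be higher there, so the count supports nothing about the group. Among the 16 detected on at least 17 of the 33 arrays, 4 were called, with a median log2 difference of 0.22 against 0.05 for all genes kept by that filter. H1-3, a linker histone, was at least 2.54-fold higher (adjusted p = 0.00108 in limma) and H4C2, a core histone, at least 2.24-fold (adjusted p = 8.29e-06). Histone genes of a cluster are near-identical, so probes may share signal.

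Of 41 small noncoding RNAs measured, 7 were higher at day 3 (17.1%, against 7.28% of all genes) and 1 was lower (2.44%, against 5.5%). As 4 of the 7 were above background on no day 2 array, the limit of the detection filter applies here too. The count supports nothing about the group. Among the 31 detected on at least 17 arrays, 4 were higher and 2 lower, and with only the arrays compared 5 of the 41 were higher and 4 lower. Besides RNU11, SCARNA9, a guide RNA of Cajal bodies, was at least 2.51-fold higher (adjusted p = 3.84e-07 in limma), RN7SK, which binds the elongation factor P-TEFb, rose by 2.05 ± 0.33 (adjusted p = 0.000118), and RNU6ATAC, another RNA of the minor spliceosome, rose by 2.06 ± 0.43 (adjusted p = 0.00189) with 1 day 2 array above background. RPPH1, the RNA of ribonuclease P, fell by 0.72 ± 0.21 (adjusted p = 0.024), a call lost without any 1 array other than day 2 array C, under median scaling and with only the arrays compared. The counts without day 2 array C were 5 higher and 2 lower.

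Mean levels under LSB3i at day 3 can be set beside those of LSB. Array A of LSB3i at day 3 correlated at 0.971 with LSB day 2 arrays A and B and at 0.963 with its own group. Its arrays B and C correlated at 0.944 and 0.941 with those day 2 arrays and at 0.977 and 0.975 with their group. The LSB3i means therefore join unlike arrays. SIX3 averaged 5.62 in LSB3i at day 3, 8.90 in LSB at day 3 and 5.76 in LSB at day 2. PAX6 averaged 5.72 in LSB3i at day 3, 7.50 in LSB at day 3 and 4.97 in LSB at day 2, while OTX2 averaged 13.08, 13.15 and 11.11 in the same order. NANOG averaged 5.84, 5.90 and 9.55 in that order. LSB3i at day 3 was not tested against LSB at day 3 here. A contrast of LSB3i at day 3 with LSB at day 2 was fitted, and its p-values are not used.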
